A study of Mus musculus with 6 samples.

Results

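The fatty acid desaturases and elongases examined here are the 9 genes Fads1, Fads2, Scd1, Scd2, Elovl1, Elovl2, Elovl3, Elovl5 and Elovl6, taken by name from the 20914 genes of a mouse liver RNA-seq count table. They were read in 3 DOX libraries and 3 PBS libraries. All 6 libraries carry the genotype label BucheKI/KI-Hep, in a study whose design text names BUCHE (butyrylcholinesterase) overexpression in liver parenchymal cells, together with Alb-Cre in the group name, a Cre driven by the albumin promoter of hepatocytes, and all 6 had BDL treatment, an abbreviation that in liver work usually means bile duct ligation. DOX and PBS are the only terms in which the labels of the groups differ, and neither these, S10D nor CKI is explained there. Strain, sex and age of the mice are not given. The labels do not say whether each library is a different mouse, and p-values here reflect library-to-library spread, part of which may be technical. All 9 genes were divided by the fatty acids their enzymes handle. The polyunsaturated branch holds 4 genes (Fads1, Fads2, Elovl2 and Elovl5), and the monounsaturated and saturated branch holds 5 (Scd1, Scd2, Elovl6, Elovl1 and Elovl3).

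Desaturases insert a double bond into a fatty acyl-CoA in the membrane of the endoplasmic reticulum, with electrons delivered through cytochrome b5. Elongases carry out the condensing step of a cycle that lengthens the chain by a 2-carbon unit. In liver, Fads2 and Fads1 work in alternation with Elovl5 and Elovl2 to convert the dietary essential fatty acids into long polyunsaturated ones such as arachidonic acid and docosahexaenoic acid. Scd1 is the main liver enzyme that makes oleate and palmitoleate from saturated chains, and Elovl6 lengthens palmitate to stearate. Scd2 serves the same reaction as Scd1 in other tissues and in early life, Elovl1 makes very long saturated and monounsaturated chains in many cell types, and Elovl3 does so in skin, brown fat and liver, where in mice it is known as a male-biased and circadian gene.

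The catalytic centres of these enzymes share a short histidine cluster, and the coding stretch around it is shown to compare the genes at this site. Likeness here does not show whether reads could be confused, which depends on whole transcripts. Each line gives 45 coding bases, 5′ to 3′, from the GENCODE transcripts of GRCm38, with the histidine codons of the cluster in capitals. Where a transcript held more than 1 such cluster in frame, the one most like its nearest relative was taken.
Fads1: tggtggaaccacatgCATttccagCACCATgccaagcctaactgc
Fads2: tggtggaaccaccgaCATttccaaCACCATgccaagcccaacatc
Scd1: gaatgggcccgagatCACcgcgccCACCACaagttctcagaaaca
Scd2: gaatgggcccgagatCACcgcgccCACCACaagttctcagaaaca
Elovl2: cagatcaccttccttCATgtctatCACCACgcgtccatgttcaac
Elovl5: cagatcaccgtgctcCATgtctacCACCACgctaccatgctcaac
Elovl6: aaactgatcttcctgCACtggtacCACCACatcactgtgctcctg
Elovl3: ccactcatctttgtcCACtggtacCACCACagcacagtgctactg
Elovl1: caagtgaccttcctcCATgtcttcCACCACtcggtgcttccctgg
Fads1 and Fads2 were identical at 38 of the 45 bases, Elovl2 and Elovl5 at 38, and Elovl3 and Elovl6 at 36. Scd1 and Scd2 were identical at all 45, although their clusters were picked from 2 each for likeness. Over whole transcripts, 4.66% of the 50-base words of Scd1 and 3.79% of those of Scd2 also occurred in another gene of the families, against 0.161% for Fads2 and 0 for the other 6 members. These are shares of words, not of counts. How the authors' counting treated such reads is not given in the sources used here. Scd1 had 6305 to 310028 counts per library and Scd2 629 to 990. Reads of Scd1 counted as Scd2 would therefore weigh more on Scd2 counts than the reverse. The share of counts in doubt was not tested.

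In GRCm38, 5 of the 9 genes lie on chromosome 19. Fads2 (10062765 to 10101746, minus strand) and Fads1 (10182888 to 10196877, plus strand) face away from each other across 81141 bases, and Fads3 (10041569 to 10060110) lies 2654 bases beyond Fads2. Scd2 (44293674 to 44306864, plus strand) and Scd1 (44394455 to 44407879, minus strand) are 87590 bases apart, and Elovl3 lies at 46131897 to 46135694. The others are Elovl6 on chromosome 3 (129532355 to 129638495), Elovl1 on chromosome 4 (118428093 to 118432953), Elovl5 on chromosome 9 (77917364 to 77984519) and Elovl2 on chromosome 13 (41182381 to 41220405). All 9 are annotated as protein coding.

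Total gene counts were 32826493 to 41102844 per library, so that 3 counts, the floor used here, corresponded to 0.0692 to 0.0908 CPM (read counts scaled to library size, with TMM factors). Of the 13725 genes that passed the filter on low counts, 4 had an adjusted p under 0.05 by the edgeR quasi-likelihood test, or 0.0291%. Alb, the albumin gene and defining marker of hepatocytes, was at 105048, 60634 and 113495 CPM in DOX libraries 1, 2 and 3, against 45625, 57734 and 52323 CPM in PBS libraries 1, 2 and 3. PBS library 2 stood apart in its endothelial markers. The summed level of 8 endothelial markers was 37.7 CPM there, against 99.7 to 201.8 CPM in the DOX libraries and 124.2 to 126.5 CPM in the other PBS libraries. In bulk liver, fewer cells of a type and less RNA per cell cannot be told apart.

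All 9 members passed the filter, and the log2 fold change of DOX over PBS was above 0 for each of them, as it was for 47.0% of all genes tested. None of the 9 reached an adjusted p of 0.05 over all genes by edgeR, while 7 had an unadjusted p under 0.05, against 5.03% of all genes tested in the higher direction. DESeq2 called 4 of them higher (Fads1, Fads2, Elovl5 and Elovl6), against 0.612% of the 20910 genes with a p by that tool. Without the filter edgeR called 1 (Fads2), against 0.215% of 20914 genes. Both shares include genes of low count that the filter removed, so their base is wider than the 13725 genes tested. All DESeq2 shares given here are of the 20910 genes. With limma-voom 0 of the 9 passed. For 6 genes, all 3 DOX libraries lay above all 3 PBS libraries, against 7.84% of genes tested. These counts describe genes that were chosen with results of these data known.

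**Figure D1:**
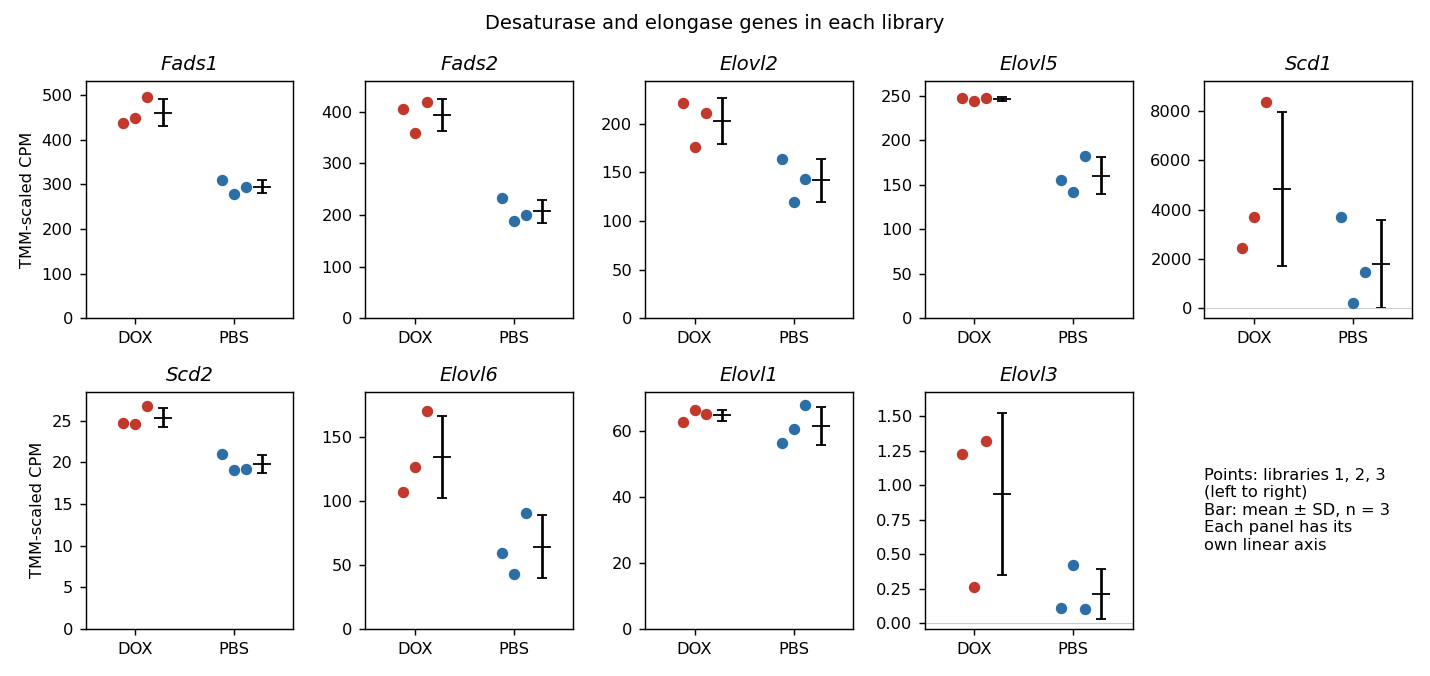
Level of each gene in each library in TMM-scaled CPM on linear axes, with DOX in red left of PBS in blue, and the mean ± SD of 3 libraries as a bar beside the points. The 4 genes of the polyunsaturated branch and Scd2 and Elovl6 do not overlap between groups, while Scd1 spans 190.8 to 3717 CPM within PBS alone.

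The polyunsaturated branch was higher in DOX in each of its 4 genes, with log2 fold changes between 0.52 and 0.93 and no overlap of the groups. Fads2, the delta-6 desaturase that opens the pathway, stood at 405.3, 358.7 and 418.9 CPM in DOX libraries, against 232.3, 188.8 and 200.8 CPM in PBS libraries. Every DOX library was thus far above the highest PBS library. Fads2 had the largest change of the branch, 1.90-fold (95% interval 1.56 to 2.32, log2 fold change 0.93, SE 0.12), and ranked 7 by p among all genes tested. It did not pass over all genes by the edgeR quasi-likelihood test (adjusted p = 0.105), whereas DESeq2 gave an adjusted p of 2.13e-09 and edgeR with no filter gave 0.00941. The alternatives spanned 2.13e-09 to 0.272.

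Fads1, the delta-5 desaturase that acts downstream of Fads2 and yields arachidonic acid, stood at 437.8, 450.0 and 495.7 CPM in DOX libraries, against 309.0, 279.6 and 294.6 CPM in PBS libraries. Its values were tight in both groups, and the gap between groups was wider than the spread within either. The fold change was 1.57 (95% interval 1.31 to 1.87, log2 fold change 0.65, SE 0.11), with an edgeR adjusted p of 0.123 and a range of 2.61e-06 to 0.406 over the alternatives, the lowest being from DESeq2. Within each library the ratio of Fads1 to Fads2 counts, which does not depend on depth, was 1.08, 1.25 and 1.18 in DOX, against 1.33, 1.48 and 1.47 in PBS. The ratio was lower in every DOX library, so that Fads2 stood further above its PBS level than Fads1 did.

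Elovl5, which lengthens the products of Fads2, stood at 246.9, 244.0 and 247.8 CPM in DOX libraries, against 154.9, 141.9 and 182.7 CPM in PBS libraries. The 3 DOX libraries were almost equal, with a highest level 1.02 times the lowest, against 1.29 times in PBS. Its fold change was 1.54 (95% interval 1.28 to 1.86), and the edgeR adjusted p was 0.183 (0.000249 to 0.529 over the alternatives, the lowest from DESeq2). Elovl2, which makes the longest chains on the way to docosahexaenoic acid, stood at 221.6, 175.9 and 211.5 CPM in DOX libraries, against 163.8, 119.1 and 142.8 CPM in PBS libraries. DOX library 2 came close to PBS library 1, and the gap between groups was the narrowest of the branch. The fold change of Elovl2 was 1.43 (95% interval 1.14 to 1.80), with an edgeR adjusted p of 0.369 and one of 0.0634 with DESeq2 (0.0634 to 0.644 over the alternatives).

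Markers of other cell types were read in the same libraries, and most of their summed levels overlapped between groups. The summed level of 8 cholangiocyte markers was 247.6, 218.5 and 121.9 CPM in DOX libraries, against 284.5, 373.6 and 262.1 CPM in PBS libraries. Spp1 alone made up most of each sum, at 161.5, 138.0 and 70.7 CPM in DOX libraries, against 199.7, 212.1 and 171.3 CPM in PBS libraries. Krt19, Krt7, Epcam, Sox9 and Muc1 overlapped between groups. All 8 of these markers had a negative log2 fold change, and 3 of them, Tspan8, Cftr and Spp1, did not overlap between groups, where 9.02% of genes tested had all 3 DOX libraries below all 3 PBS libraries. The 8 endothelial markers all had positive values, and their sums overlapped between groups (99.7 to 201.8 CPM in DOX, against 37.7 to 126.5 CPM in PBS). Among 8 hepatocyte markers, Alb and Ttr did not overlap and were higher in DOX, Hnf4a did not overlap and was lower, and the median log2 fold change was 0.12. Summed levels of stellate cell markers (148.9 to 298.5 CPM in DOX, 150.3 to 270.8 CPM in PBS), macrophage markers (778.4 to 1030 CPM in DOX, 863.6 to 873.7 CPM in PBS) and neutrophil markers (11.9 to 17.8 CPM in DOX, 14.0 to 26.6 CPM in PBS) overlapped. Adipocyte and lymphocyte markers summed to at most 3.63 CPM in any library. The part of these markers in the values of the polyunsaturated branch was not tested.

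The monounsaturated and saturated branch did not move as 1 group. Its log2 fold changes ran from 0.07 for Elovl1 to 2.16 for Elovl3, and 3 of its 5 genes overlapped between groups. Scd1, the stearoyl-CoA desaturase of hepatocytes, was by far the most abundant of the 9 genes and the most variable in absolute level. It stood at 2436, 3713 and 8369 CPM in DOX libraries, against 3717, 190.8 and 1468 CPM in PBS libraries. The highest PBS library was level with the middle DOX library, and PBS library 2 was far below all others, so that the levels within PBS differed 19.5-fold. In counts this was 6305 reads in PBS library 2 against 161047 in PBS library 1, which is far beyond counting error at this depth.

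The Scd1 means were 4839 ± 3123 CPM in DOX and 1792 ± 1785 CPM in PBS (SD, n = 3 each). The fold change of 2.70 had a 95% interval of 0.682 to 10.7 and did not pass (edgeR adjusted p = 0.613, exact two-sided permutation p = 0.3 where 3 against 3 libraries allow no less than 0.1). It depended on which library was counted. The log2 fold change of 1.43 became 0.90 without PBS library 2, 0.78 without DOX library 3 and 2.55 without PBS library 1. Without PBS library 2 and DOX library 3 together, an alternative chosen after the data were seen, it was 0.25 (edgeR adjusted p = 0.913, range over the alternatives 0.428 to 0.913). Of the 13725 genes tested, 4 had a wider log2 range within PBS than the 4.28 of Scd1, and of those at a mean of 10 CPM or more there was 1. That gene, Cyp4a14, a fatty acid hydroxylase, was named after its values were seen. It stood at 17.7 to 811.9 CPM in PBS and was highest there in PBS library 2, where Scd1 was lowest.

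Scd2, the close relative of Scd1, stood at 24.7, 24.6 and 26.7 CPM in DOX libraries, against 21.0, 19.0 and 19.2 CPM in PBS libraries. The groups did not overlap, and the highest level was 1.08 times the lowest in DOX and 1.10 times in PBS. The fold change was 1.28 (95% interval 1.11 to 1.48), with an edgeR adjusted p of 0.310 and one of 0.130 with DESeq2. Scd2 did not share the swings of Scd1. Its counts lay between 629 and 990 while those of Scd1 lay between 6305 and 310028, and the ratio of Scd1 to Scd2 counts was 98.5, 150.7 and 313.2 in DOX libraries, against 176.8, 10.02 and 76.3 in PBS libraries. Scd1 made up 91.9% to 99.7% of the FPKM summed over Scd1 to Scd4, the lowest share being in PBS library 2.

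Elovl6, the elongase that supplies Scd1 with stearate, stood at 107.4, 126.6 and 170.2 CPM in DOX libraries, against 59.5, 42.6 and 90.8 CPM in PBS libraries. The groups did not overlap, and as for Scd1 the highest value was in DOX library 3 and the lowest in PBS library 2. The fold change was 2.10 (95% interval 1.36 to 3.23, log2 fold change 1.07, SE 0.27), with an edgeR adjusted p of 0.321 and a range of 0.00884 to 0.678 over the alternatives, the lowest from DESeq2. Elovl1 stood at 62.9, 66.4 and 65.2 CPM in DOX libraries, against 56.5, 60.6 and 68.0 CPM in PBS libraries. These groups overlapped, and the 95% interval of its fold change was 0.904 to 1.22. The log2 fold change of Elovl1 was 0.07 and had a negative sign when libraries were scaled by size only (-0.06), a scaling that moved the median of all genes tested to -0.15, compared with -0.02 in the TMM-scaled fit.

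Elovl3 was close to the detection limit, with 46, 9 and 49 counts in DOX libraries, against 5, 14 and 4 counts in PBS libraries. It reached the minimum of the filter in 2 DOX libraries and 1 PBS library. DOX library 2, at 0.266 CPM, lay below PBS library 2, at 0.424 CPM, so that the groups overlapped. The fitted log2 fold change of 2.16 (SE 0.74) did not pass (edgeR adjusted p = 0.429). Of 11 tested male-biased liver genes, 6 had a positive value, with a median of 0.01. None of the 11 had all DOX libraries above all PBS libraries, against 7.84% of all genes tested. In 1 of the 11, Cyp2d9, all DOX libraries lay below all PBS libraries, against 9.02%. Cyp2d9, a male-biased cytochrome P450, stood at 132.6 to 236.5 CPM in DOX and 265.3 to 353.4 CPM in PBS (edgeR adjusted p = 0.418). Slco1a1 and Ugt2b1 of the same list had positive log2 fold changes of 3.68 and 0.93 with overlap (edgeR adjusted p = 0.434 and 0.580). Slco1a1 had 432, 22 and 31 counts in DOX libraries, against 30, 0 and 10 in PBS libraries. Of 7 tested female-biased liver genes, 4 had a positive value, with a median of 0.21. Cyp2b9 of the female-biased list did not pass the filter on low counts. It stood at 0.0267, 0 and 0.0810 CPM in DOX libraries, against 0.208, 3.06 and 0.107 CPM in PBS libraries. All DOX libraries of Cyp2b9 lay below all PBS libraries. DESeq2 called Cyp2b9 lower (adjusted p = 0.0193), as it did 0.23% of genes. Of 16 clock genes, Bmal1 and Cry1 were higher without overlap, and Per2 and Hlf lower without overlap, so 2 of 16 lay above and 2 of 16 below, where 7.84% and 9.02% of all genes tested did. Bmal1, a core activator of the clock, stood at 19.3 to 20.4 CPM in DOX and 11.6 to 15.3 CPM in PBS (edgeR adjusted p = 0.216, DESeq2 adjusted p = 0.0123).

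**Figure D2:**
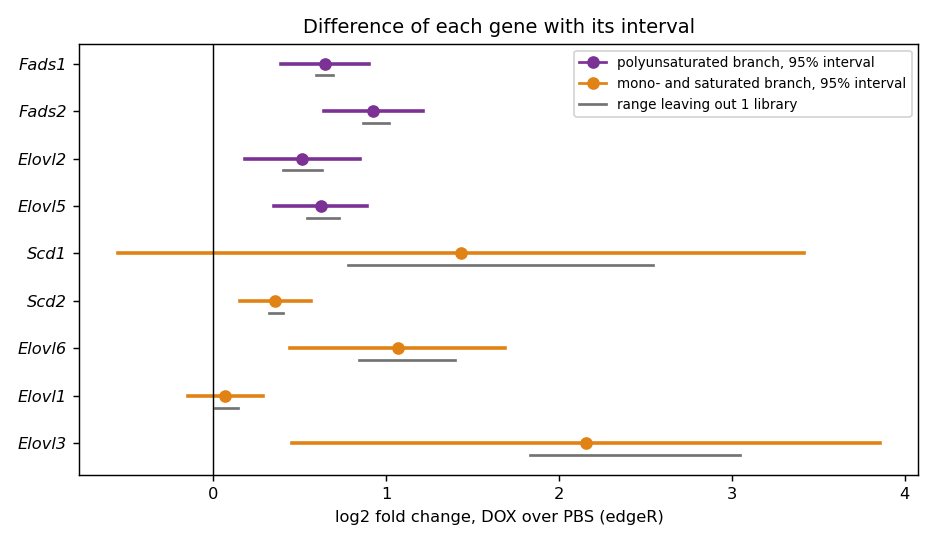
Log2 fold change of DOX over PBS from edgeR for each gene, with its 95% interval in purple for the polyunsaturated branch and in orange for the monounsaturated and saturated branch, and in grey the range when 1 library is left out. The interval of Scd1 spans 0 and is wide, those of Fads1, Fads2, Elovl2 and Elovl5 lie between 0.18 and 1.21, and Elovl1 sits at 0.07.

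Set against each other, the branches differed in how evenly they moved more than in direction. The median log2 fold change was 0.64 for the polyunsaturated branch (0.52 to 0.93) and 1.07 for the other branch (0.07 to 2.16), beside a median of -0.02 over all genes tested. The mean of the polyunsaturated branch was 8.29, 8.17 and 8.34 log2 CPM in DOX libraries, against 7.69, 7.43 and 7.63 log2 CPM in PBS libraries. That of the other branch was 5.79, 5.58 and 6.33 log2 CPM in DOX libraries, against 5.08, 4.42 and 4.95 log2 CPM in PBS libraries. Both means were higher in every DOX library.

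The polyunsaturated mean minus the other mean was 2.502, 2.60 and 2.001 in DOX libraries, against 2.61, 3.01 and 2.68 in PBS libraries, in log2 units. The groups did not overlap, although DOX library 2 and PBS library 1 almost touched. This separation did not hold under other definitions. With log2(FPKM + 1), with Scd1, Scd2 and Elovl6 alone, or without Scd1, the last chosen after the data were seen, the groups overlapped and the mean difference of DOX minus PBS was -0.12, -0.49 and -0.16, compared with -0.40. Whether the groups separated thus depended on the definition used, and no test was made of a score over the genes.

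Ratios within libraries showed the same. The ratio of Fads2 to Scd1 counts was 0.166, 0.0966 and 0.0501 in DOX libraries, against 0.0625, 0.990 and 0.137 in PBS libraries. PBS library 2, where the 2 transcripts had nearly equal counts, set the PBS mean of this ratio. Elovl5 to Elovl6 counts had ratios of 2.30, 1.93 and 1.46 in DOX libraries, against 2.61, 3.33 and 2.01 in PBS libraries, which overlapped at DOX library 1 and PBS library 3.

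**Figure D3:**
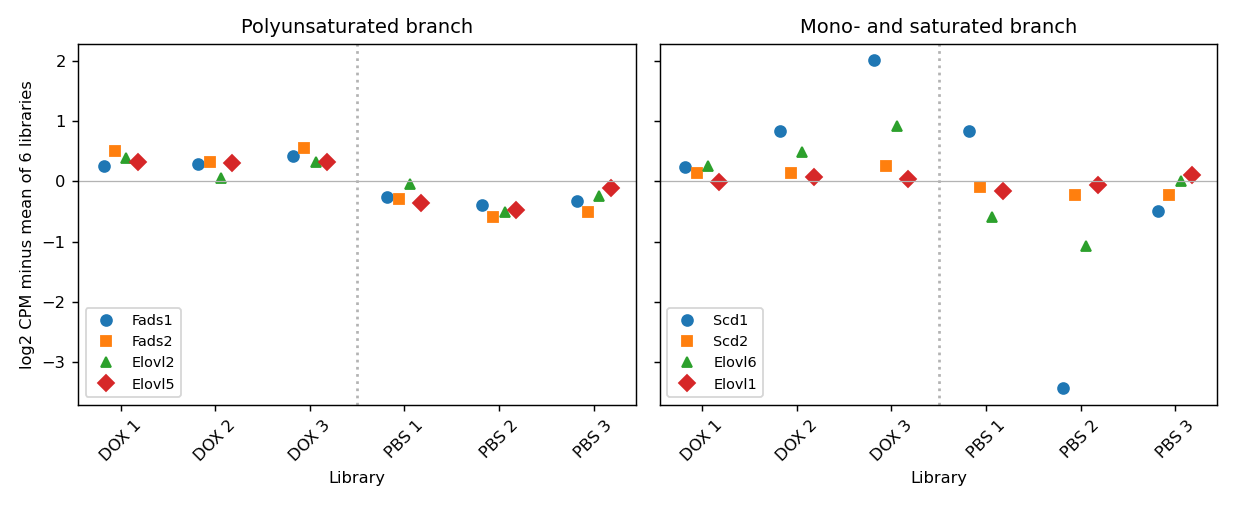
Level of each gene in each library as log2 CPM minus its mean over the 6 libraries, for the polyunsaturated branch at left and for Scd1, Scd2, Elovl6 and Elovl1 at right, with DOX libraries left of the dotted line and PBS libraries right of it. Genes at left sit in a narrow band in each group, while Scd1 at right is lowest in PBS library 2, where it has 190.8 CPM, and highest in DOX library 3, where it has 8369 CPM.

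Per transcript length, Scd1 had the highest mean and Elovl3 the lowest in both groups, and 2 pairs of neighbours in the order, Fads2 with Fads1 and Elovl6 with Elovl1, changed places between groups. Mean FPKM, the authors' deposited values scaled by transcript length and library depth, were 938.0 ± 556.9 in DOX and 394.7 ± 395.1 in PBS for Scd1 (SD, n = 3 each). Next came Fads1 and Fads2, with Fads2 at 129.2 ± 5.05 FPKM in DOX and 74.8 ± 10.01 in PBS, and Fads1 at 124.2 ± 4.73 and 87.2 ± 6.99. Elovl5 followed at 74.2 ± 3.47 in DOX and 52.9 ± 8.26 in PBS, and Elovl2 at 48.8 ± 4.61 and 37.6 ± 6.98. Fads2 was above Fads1 in 2 of 3 DOX libraries and in 0 of 3 PBS libraries, and in DOX their means differed by no more than their spread. PBS library 2 had less Scd1 (39.7 FPKM) than Fads1 (79.5 FPKM), so that the leading place of Scd1 did not hold in every library. Elovl6 averaged 21.5 ± 4.22 FPKM in DOX and 11.4 ± 4.58 in PBS, beside 13.9 ± 0.939 and 14.5 ± 1.55 for Elovl1. Elovl6 was above Elovl1 in 3 of 3 DOX libraries and in 0 of 3 PBS libraries, although in PBS library 3 both genes were at 16.3 FPKM after rounding. Scd2 was at 4.44 ± 0.0907 FPKM in DOX and 3.80 ± 0.303 in PBS, and Elovl3 lowest, at 0.445 ± 0.269 and 0.112 ± 0.0900.

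Of 6 tested relatives of the families outside the 9 members, 1 was above 0 in log2 fold change, with a median of -0.20. Elovl4 was not analysed here. Fads3, the neighbour of Fads2 in the same gene cluster and a desaturase that acts on sphingoid bases, stood at 24.2, 19.4 and 18.2 CPM in DOX libraries, against 29.1, 33.4 and 32.6 CPM in PBS libraries. All DOX libraries were below all PBS libraries, with a log2 fold change of -0.62 (SE 0.12). It did not pass by edgeR (adjusted p = 0.216), had an unadjusted p under 0.05 where 4.87% of genes did in the lower direction, and passed with DESeq2 (adjusted p = 0.0140), which called 0.23% of genes lower. The ratio of Fads2 to Fads3 counts was 16.7, 18.5 and 23.0 in DOX libraries, against 7.97, 5.65 and 6.15 in PBS libraries, so that these neighbours moved apart in every DOX library. Scd3, a desaturase best known from sebaceous glands, had 28, 15 and 32 counts in DOX libraries, against 10, 1 and 2 in PBS libraries, which did not overlap. Its log2 fold change of 2.60 (SE 0.67) did not pass by edgeR (adjusted p = 0.328) and passed narrowly with DESeq2 (adjusted p = 0.04996). Since 6.37% of the 50-base words of Scd3 occurred in other Scd transcripts, mostly in Scd1, these few reads could in part be those of Scd1, which was not tested. Fads6 stood at 178.8 to 203.8 CPM in DOX and 159.6 to 227.5 CPM in PBS. Degs1, the ceramide desaturase, stood at 107.7 to 116.5 CPM in DOX and 108.6 to 140.5 CPM in PBS, and Elovl7 at 3.32 to 5.67 CPM in DOX and 5.06 to 11.5 CPM in PBS, both with overlap. Degs2 had 7 to 12 counts in DOX and 7 to 15 in PBS, and Scd4 had at most 5 counts.

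The enzymes that complete each round of elongation after the Elovl step showed smaller differences. Hacd2, a dehydratase of the cycle, stood at 70.5, 69.3 and 70.0 CPM in DOX libraries, against 55.3, 52.5 and 57.1 CPM in PBS libraries, a log2 fold change of 0.35 (SE 0.08, edgeR adjusted p = 0.259, DESeq2 adjusted p = 0.0370). Hsd17b12, the ketoacyl reductase, and Tecr, the enoyl reductase that closes the cycle, had log2 fold changes of 0.36 and 0.32 without overlap and did not pass (edgeR adjusted p = 0.413 and 0.444). Hacd1, Hacd3 and Hacd4 overlapped, with log2 fold changes of 0.03, 0.10 and -0.17. None of the 6 genes passed over all genes by edgeR, 3 had an unadjusted p under 0.05 in the higher direction, against 5.03% of all genes tested, and the median was 0.21.

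Genes that supply electrons to the desaturases were mixed. Cyb5b, a cytochrome b5 of the outer mitochondrial membrane, stood at 256.8 to 345.6 CPM in DOX and 192.2 to 250.5 CPM in PBS, and Cyb5r3, a cytochrome b5 reductase, at 422.9 to 476.4 CPM in DOX and 316.6 to 409.3 CPM in PBS. For neither gene did the groups overlap, and neither passed (edgeR adjusted p = 0.418 and 0.484). Cyb5a, the cytochrome b5 of the endoplasmic reticulum, stood at 862.3 to 1274 CPM in DOX and 803.2 to 941.2 CPM in PBS and overlapped. Por, the reductase of cytochrome P450 enzymes, stood at 810.1 to 1011 CPM in DOX and 581.6 to 1145 CPM in PBS. Cyb5r1 did not overlap and was lower, with a log2 fold change of -0.24, Cyb5r4 had -0.08, and Cyb5r2 had a count in PBS library 3 only.

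The list for synthesis of the saturated substrates held 10 genes, among them regulators such as Thrsp as well as enzymes. All 10 had positive values, against 47.0% of all genes tested, with a median of 0.88. In 8 of the 10 all DOX libraries lay above all PBS libraries, against 7.84% of all genes tested. With DESeq2 8 were called higher, against 0.612% of genes, and with edgeR 0, although 8 had an unadjusted p under 0.05, against 5.03%. Acaca, the acetyl-CoA carboxylase that provides malonyl-CoA for synthesis and elongation alike, stood at 162.8, 185.1 and 201.7 CPM in DOX libraries, against 99.0, 82.9 and 116.2 CPM in PBS libraries (edgeR adjusted p = 0.107). Acly, Thrsp and Acacb, the ATP citrate lyase, a lipogenic regulator and the mitochondrial carboxylase, had log2 fold changes of 0.59, 1.70 and 1.51 without overlap. Of 21 regulators, 14 were positive with a median of 0.07. Srebf1, the transcription factor that acts on desaturase and lipogenic genes, stood at 230.8, 229.2 and 241.7 CPM in DOX libraries, against 189.6, 118.4 and 160.0 CPM in PBS libraries (log2 fold change 0.58, SE 0.16, edgeR adjusted p = 0.369, DESeq2 adjusted p = 0.0495). Scap, its escort protein, did not overlap either, with a log2 fold change of 0.25, while Insig2 and Nfya overlapped, with 0.47 and -0.39.

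Downstream of the polyunsaturated branch, 9 of 10 genes of the peroxisomal step that finishes docosahexaenoic acid were positive, with a median of 0.34. Of all genes tested, 47.0% were positive. Scp2, which holds the peroxisomal thiolase, stood at 1890, 2525 and 2455 CPM in DOX libraries, against 1195, 1154 and 1135 CPM in PBS libraries (edgeR adjusted p = 0.106, DESeq2 adjusted p = 5.61e-09). Acaa1b, another peroxisomal thiolase, stood at 94.8 to 404.2 CPM in DOX and 51.3 to 84.6 CPM in PBS. Abcd2 and Hsd17b4 had log2 fold changes of 0.33 and 0.35, and Hsd17b4 overlapped between groups. Among 11 tested genes that place fatty acids in phospholipids or, as phospholipases A2, release them, 7 were positive with a median of 0.16. Lpcat3, which prefers polyunsaturated acyl groups, stood at 104.8 to 122.5 CPM in DOX and 73.6 to 99.95 CPM in PBS (edgeR adjusted p = 0.399). Pla2g6, a phospholipase A2, and Agpat3, an acyltransferase, were higher without overlap, with log2 fold changes of 0.32 and 0.28, and Mboat1 lower without overlap, with -0.84. Among 12 tested genes of acyl-CoA activation and binding, 8 were positive with a median of 0.17, and Dbi, the acyl-CoA binding protein, stood at 619.9, 789.0 and 939.7 CPM in DOX libraries, against 502.5, 379.5 and 427.6 CPM in PBS libraries (edgeR adjusted p = 0.230). Acsl3, Slc27a2 and Acsl5, which activate long fatty acids, had log2 fold changes of 0.57, 0.61 and 0.47 without overlap. All DOX libraries lay above all PBS libraries in 4 of 10 peroxisomal, 4 of 11 phospholipid and 4 of 12 acyl-CoA genes, against 7.84% of all genes tested. They lay below in 1 of the 11 phospholipid genes, Mboat1, against 9.02%. No gene of these lists passed over all genes by edgeR. With DESeq2, Dbi, Slc27a2 and Acsl3 were called higher (adjusted p = 0.000787, 0.00884 and 0.0290), and Acsl5 was not (adjusted p = 0.0786). Scp2 alone was called in the peroxisomal list and 0 genes in the phospholipid list. DESeq2 called 0.612% of genes higher.

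**Figure D4:**
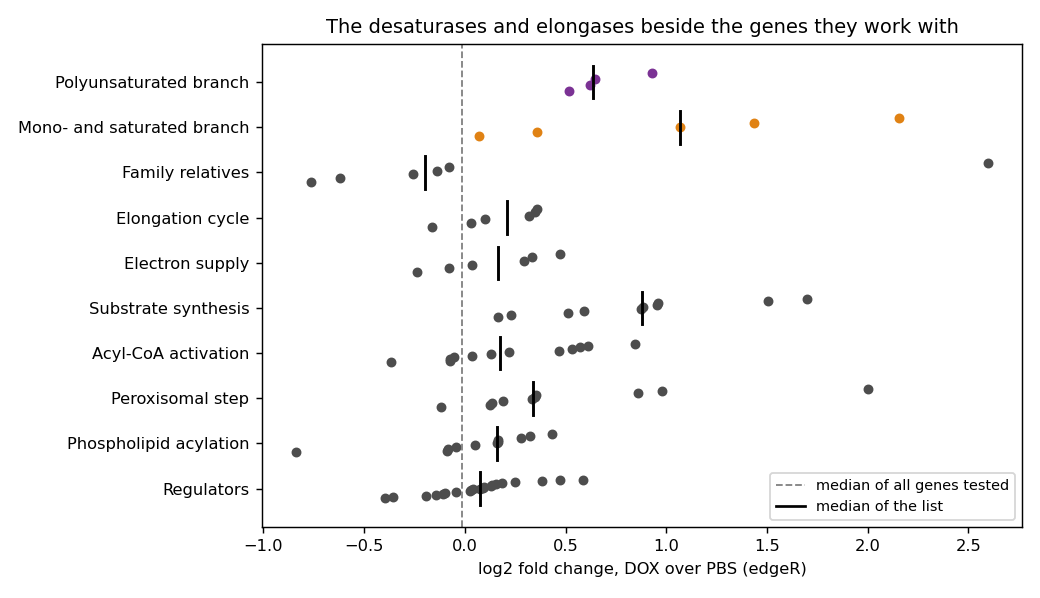
Log2 fold change of DOX over PBS from edgeR for each tested gene of the desaturases and elongases and of the lists of genes they work with, with the median of each list as a black bar and the median of all genes tested as a dashed line at -0.02. The polyunsaturated branch forms a tight group around 0.64, and the other branch is spread widely with a median of 1.07. The substrate synthesis list, at 0.88, lies between these medians, while the family relatives have a median of -0.20.

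Fads2 and Scd1 had different companions. Over the 6 libraries, the genes at a mean of 10 CPM or more whose centred log2 CPM differed least from that of Fads2 were Dock8, Zfand4, Ank, Khk and Pstpip2, with root mean square differences of 0.10 to 0.15 among 7737 genes. Khk, the ketohexokinase of fructose metabolism, stood at 297.9, 316.3 and 389.8 CPM in DOX libraries, against 185.0, 184.6 and 196.7 CPM in PBS libraries. Fads1 followed closely at 0.16, Elovl5 at 0.21 and Elovl2 at 0.22. Of the other branch, Scd2 was at 0.29, Elovl6 at 0.37 and Elovl1 at 0.46, while Scd1 was at 1.41. Nearest to Scd1 were Gstm3, Rgn, Cyp1a2, Akr1b7 and Akr1c6, at the larger distances of 0.68 to 0.89. All of them were lowest in PBS library 2, which largely follows from picking them by nearness to Scd1. The distance is not scaled for range, so a gene that varies as widely as Scd1 tends to have larger distances. Gstm3, a glutathione transferase, stood at 228.0, 626.2 and 1456 CPM in DOX libraries, against 363.1, 74.5 and 240.8 CPM in PBS libraries. Of the other members compared, Elovl6 was nearest to Scd1, at 1.24, but it was nearer to Fads2, at 0.37. All these profiles share the same libraries and scaling.

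Promoter sequence was looked up for all 9 members. RefSeq promoters of GRCm38.p6, 250 bases before to 50 after the start, were found for 5 of the 9 genes (Fads2, Elovl1, Elovl2, Elovl5 and Elovl6), and not for Fads1, Scd1, Scd2 and Elovl3. Motifs were searched on both strands, and the matches printed do not overlap each other: CACGTG (E-box, in 7.15% of all 32851 promoters), CCAAT (NF-Y box, 37.4%), TCACNCCAC (an SREBP element, 1.24%) and GGGCGG (GC box, 35.7%). The promoters of Fads2 (chr19:10101454-10101753, minus strand) and Elovl5 (chr9:77917115-77917414, plus strand) are shown because Fads2 had the largest fold change of its branch and Elovl5 the tightest DOX values, with matches in capitals.
Fads2: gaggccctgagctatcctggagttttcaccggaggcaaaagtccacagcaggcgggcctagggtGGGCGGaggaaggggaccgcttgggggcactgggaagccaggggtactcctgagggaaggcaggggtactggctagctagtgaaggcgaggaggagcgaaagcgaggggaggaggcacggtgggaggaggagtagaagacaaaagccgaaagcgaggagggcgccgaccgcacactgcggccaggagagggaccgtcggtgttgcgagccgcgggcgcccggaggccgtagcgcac
Elovl5: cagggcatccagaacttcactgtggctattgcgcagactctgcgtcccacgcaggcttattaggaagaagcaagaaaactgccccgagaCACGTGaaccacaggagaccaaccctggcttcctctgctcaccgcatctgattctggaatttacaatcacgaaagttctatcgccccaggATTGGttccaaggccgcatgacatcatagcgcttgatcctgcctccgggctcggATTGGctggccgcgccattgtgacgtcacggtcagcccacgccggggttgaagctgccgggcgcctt
Elovl5 held an E-box and a pair of NF-Y boxes on the minus strand, and Fads2 held a GC box. Elovl2 held 5 GC boxes in one of its 2 promoters and none of these letters in the other. Elovl1, whose groups overlapped, held an NF-Y box and 5 GC boxes in one of its promoters and 2 GC boxes in the other, and Fads3, whose DOX libraries were lower, held 2 NF-Y boxes and 2 GC boxes. Elovl6 held none of these letters in this window, and no member's window held the SREBP element. A match describes letters only.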

How the data were processed

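RNA from mouse liver was measured in 6 libraries, 3 DOX and 3 PBS, grouped by their titles. Per the labels' protocols, libraries were made with a SMARTER mRNA-Seq kit from 1.3 ug of total RNA. Per the submitters' processing notes the builds were GRCm38 and mm10. Which aligner and counter were used, and whether strand was considered, is not stated there. Deposited by the authors were whole-number read counts per gene and FPKM values. The deposited FPKM equal the counts over a fixed gene length and the library total in 18913 of 18913 genes with counts in at least 2 libraries (relative tolerance 1e-05), so levels per length rest on the authors' lengths.

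The main test used edgeR 4.0.16 under R 4.3.3 on the counts (filterByExpr, TMM scaling, quasi-likelihood test with legacy = TRUE), DOX over PBS, with Benjamini-Hochberg adjustment over all genes tested and a threshold of 0.05. Standard errors and 95% intervals come from the quasi-likelihood F statistic. Branch means, within-group ranges and pattern distances use log2 CPM with a prior count of 2. Alternatives were DESeq2 1.42.0, limma-voom (limma 3.58.1), other scalings and filters, legacy = FALSE, the replicate number as a block, each library left out, and limma on log2 of FPKM plus 1 or 0.1. The procedure was checked on simulated data. Replicate pairs differed beyond counting noise (chi-square over its degrees of freedom 41.9 to 132.2), and each library counts as 1 sample. The floor and the counts cover counting error only.

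The members and gene lists were chosen with earlier results of these data known. Of 194 list entries, 7 had no row under that name. The rule for named genes takes the 9 members, every gene of the lists of relatives, elongation cycle and electron supply, the 4 of smallest p at 1 CPM or more in each other list, and the 5 genes nearest in pattern to Fads2 and to Scd1. The text departs from this rule. It names no stellate, endothelial, macrophage, neutrophil, adipocyte or lymphocyte marker, and not all 4 of the hepatocyte, male-biased and female-biased lists. Hnf4a, Cyp2b9, Cyp4a14 and the cholangiocyte markers beyond 4 were named outside it.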

Additional observations from a re-analysis of the deposited data

How the results depend on the processing

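Limits first: with 3 libraries a group, differences as small as that of Elovl1 were within the spread between libraries, and Elovl3 had 4 to 49 counts, with DOX libraries at 46, 9 and 49. Of 151 alternative values of single members, 143 kept their direction and their side of the threshold, 5 passed the threshold where the main value did not, and 3 had the other sign. Those 3 were Elovl1, at -0.062 scaled by library size only and -0.055 and -0.058 on log2 of FPKM plus 1 and plus 0.1, with adjusted p of 0.806, 0.804 and 0.837 (range over its alternatives 0.673 to 0.987). Members higher in DOX were 0 with edgeR, 4 with DESeq2 and 1 without the filter, and 0 to 0 when 1 library was left out. The polyunsaturated median of 0.64 was 0.50 scaled by library size only and 0.50 on both FPKM scales, and 0.58 to 0.69 when 1 library was left out. The median of the other branch, 1.07, was 0.36 on log2 of FPKM plus 1, 0.78 to 1.31 when 1 library was left out, and 0.27 without PBS library 2 and DOX library 3 together, where Elovl3 was below the filter. The branch difference of -0.40 was -0.12 on log2 of FPKM plus 1, and -0.52 to -0.22 when 1 library was left out. A pseudocount lowers the change of low genes by construction, and library size alone moved the median of all genes by -0.13, to -0.15. On log2 of FPKM plus 1 and plus 0.1 that median was -0.09 and -0.14. The cause of the other shifts was not tested. Genes called over the whole table were 4 with edgeR, 176 with DESeq2, 61 without the filter, 2 with limma-voom and 2 on log2 of FPKM plus 0.1. With the replicate block 21 genes were called and 0 members, Fads2 at an adjusted p of 0.052. The polyunsaturated median was then 0.64, and the log2 fold change of Scd1 2.16. Deviations from the group means correlated at 0.192, 0.130 and 0.00975 between libraries sharing the numbers 1, 2 and 3, and otherwise at -0.183 to 0.0565. The values for numbers 1 and 2 were thus above those of all other pairs. The numbers were not taken to pair the libraries because the labels do not give their meaning. Whether they mark pairs was not tested.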
